A study of Mus musculus with 2 samples.

Results

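The genes described are 9 of the 33696 in the deposited matrix: both receptor chains for interferon gamma (Ifngr1 and Ifngr2), both chains for the type I interferons (Ifnar1 and Ifnar2), the receptor kinases Jak1 and Jak2, the transcription factor subunits Stat2 and Irf9, and the feedback inhibitor Socs1. They were taken as a fixed list of symbols, each of which matched 1 gene, and hold 61487 unique molecular identifiers (UMIs, counted RNA molecules) in the cells examined. Tumours grew under the skin of mice, genotype labelled WT, from 4T1, an established mouse mammary carcinoma line. One group received the treatment that the sample label calls PCN and the series text PATCH, and the other received PBS, a salt solution, instead. Each group is 1 single-cell library, and how many animals were pooled in it is not given in the sources used here. Every value below is from the treated tumours: control counts are not analysed here, so the members were not compared between treated and control, and no test between samples was possible.

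Interferon gamma binds a receptor of IFNGR1 and IFNGR2 chains, which carry the kinases JAK1 and JAK2. Type I interferons bind IFNAR1 and IFNAR2, on which TYK2 and JAK1 phosphorylate STAT2, and STAT2 acts with IRF9 in the complex ISGF3, which binds the interferon-stimulated response element in front of its target genes. SOCS1 is induced by the pathway and blocks the kinases. In tumours, interferon gamma comes mainly from T and natural killer cells, and it raises antigen presentation in the cells that receive it.

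The library held 12309 barcodes, of which the authors kept 10835, with 500 to 19989 UMIs per cell (median 3575) and a median of 1512 detected genes. Kept cells were put in 5 classes by the share of their UMIs in a few genes, and a cell that met several rules took the first of neutrophil, fibroblast, tumour, T/NK and macrophage. The neutrophil class held 3518 cells, the fibroblast class 325, the tumour class 322, the T/NK class 238 and the macrophage class 4672, and 1760 cells met no rule and are called unclassed. Of 7 markers per class that the rules did not use, 6 were highest in the neutrophil class (Mmp9 was highest in unclassed cells) and 7 of 7 in each of the other 4. All 5 B cell markers, all 5 osteoclast markers and 4 of 5 endothelial markers were highest in the unclassed cells. Of 6 dendritic markers, 3 were highest there, 2 in the T/NK class and 1 in the fibroblast class. The classes are ranges of a score: 116 of the 238 T/NK cells lay within 2 times the threshold, and 345 kept cells met more than 1 rule. Median depth ran from 1698 UMIs per cell in the neutrophil class to 11662 in the fibroblast class.

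Levels are in CPM, the summed UMIs of a gene per 1000000 UMIs of its class, with exact 95% Poisson intervals, which like all intervals here cover counting error only. A higher CPM in a class can come from more RNA of the gene or from less of other RNA. Free RNA sets a floor that was not subtracted: Col1a1, a collagen gene at 14152 CPM in the fibroblast class and 892 CPM over all kept cells, was at 38.1 to 64.6 CPM elsewhere, in 4.37% to 6.12% of cells thinned to 1000 UMIs. C1qc, a complement gene at 1817 CPM in the macrophage class, was at 42.8 to 129 CPM elsewhere, in 3.75% to 7.92% of thinned cells. No class is known to lack the 9 genes, so their own floor was not measured. Ifnar2, Irf9 and Jak1 overlap other annotated genes in the GENCODE M21 annotation (Ifnar2 with Gm21970, Irf9 with Rnf31, and Jak1 with the pseudogene Gm12785 on its own strand and with Raver2 and Gm24468 on the opposite one), and how shared reads were counted is not given in the sources used here, so their levels carry that uncertainty.

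Of the 9 genes, Ifngr1 had the widest range between groups. It encodes the chain that binds interferon gamma and stood at 848 CPM (787 to 913) in the T/NK class. It was at 208 CPM in the neutrophil class, 169 in unclassed cells, 166 in the macrophage class, 116 in the fibroblast class and 61.9 (53.75 to 71.0) in the tumour class. The highest level was 13.7 times the lowest, and of neighbours in this order only unclassed cells and the macrophage class did not differ beyond counting error. Ifngr1 UMIs were found in 82.4% of T/NK cells, and in 57.6% (51.0% to 64.1%) when every cell was thinned to 1000 UMIs. At that equal depth the other groups lay between 6.12% in the tumour class and 17.8% in the neutrophil class, so no interval reached that of the T/NK class.

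Ifngr2, the chain that brings JAK2 to the receptor, spanned less. It was at 126 CPM (103 to 153) in the T/NK class, 82.1 in the macrophage class, 72.0 in unclassed cells, 50.5 in the neutrophil class, 34.3 in the fibroblast class and 30.4 in the tumour class. Only the fibroblast and tumour classes, as neighbours in this order, did not differ beyond counting error. Its share of thinned cells was 11.4% in the T/NK class and 7.21% in the macrophage class, against 1.25% (4 of 320 cells) in the fibroblast class. In the tumour class that share was 5.04%, above the fibroblast class although the CPM was not, so no order is read for these 2 classes.

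The balance of the chains moved with the class. Per 100 UMIs of Ifngr1, the T/NK class had 14.9 UMIs of Ifngr2 (12.01 to 18.3), the neutrophil class 24.2, the fibroblast class 29.7, unclassed cells 42.6, the tumour class 49.0 and the macrophage class 49.6 (47.4 to 51.8). These ratios of RNA are compared between classes only, since UMI counts of different genes also depend on capture. Both chains were seen in the same cell in 26.1% of T/NK cells and 29.9% of macrophage cells, the deeper of the pair of classes. After thinning these became 5.24% (12 of 229 cells, 2.74% to 8.97%) and 1.41% (1.08% to 1.79%).

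The type I interferon receptor had another order. Ifnar2, the chain that binds interferon tightly and docks STAT2, was highest in the neutrophil class at 299 CPM (287 to 312), followed by the macrophage class at 238, unclassed cells at 190.2, the fibroblast class at 188, the T/NK class at 90.4 (71.2 to 113) and the tumour class at 70.3 (61.6 to 79.9). Unclassed cells and the fibroblast class did not differ beyond counting error, nor did the T/NK and tumour classes, and the other neighbours in this order did. Thinned shares kept the neutrophil class on top, with 24.7% of cells, against 20.1% in the macrophage class, 8.99% in the tumour class and 8.30% in the T/NK class. Because neutrophil cells hold little RNA, they had 64.0 Ifnar2 UMIs per 100 cells, against 189 in the macrophage class.

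Ifnar1, the chain that carries TYK2, was at 111 CPM in the T/NK class and 109 in the macrophage class, which did not differ beyond counting error. Unclassed cells were at 81.5 CPM, the neutrophil class at 69.2, the fibroblast class at 43.4 and the tumour class at 37.3, and the last pair did not differ beyond counting error either. Of Ifnar1 there were 122 UMIs per 100 of Ifnar2 in the T/NK class (89.4 to 168), 53.0 in the tumour class, 45.8 in the macrophage class, 42.9 in unclassed cells, 23.1 in the neutrophil class and 23.0 in the fibroblast class. The T/NK class thus stood at an end for both receptors, with the least Ifngr2 relative to Ifngr1 and the most Ifnar1 relative to Ifnar2. Both IFNAR chains were seen together in 41.8% of macrophage cells and 6.72% of T/NK cells, and in 2.22% and 1.75% of them after thinning, with overlapping intervals.

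The kinases followed the gamma receptor in the T/NK class. Jak1, which serves both receptors and many cytokine receptors, was at 778 CPM (719 to 840) in the T/NK class, 353 in the fibroblast class, 299.7 in the neutrophil class, 243 in unclassed cells, 201 in the macrophage class and 145 in the tumour class. Every neighbour in that order differed beyond counting error. Jak2, which acts at the gamma receptor and at receptors for colony-stimulating factors, was at 387 CPM (346 to 431) in the T/NK class, 237 in the neutrophil class, 195 in unclassed cells, 162 in the tumour class, 134 in the fibroblast class and 106 (103 to 109) in the macrophage class, again with every neighbour apart. The tumour class, lowest for Jak1, was thus above the fibroblast and macrophage classes for Jak2 in CPM of kept cells. In thinned cells its Jak2 share was 14.0% (10.2% to 18.7%). The intervals of the fibroblast class (11.9%, 8.54% to 15.9%) and the macrophage class (8.70% to 10.4%) overlap it. In barcodes that the authors left out, Jak2 was at 98.6 CPM under the tumour rule, 119 under the fibroblast rule and 94.5 under the macrophage rule. At equal depth Jak1 was found in 53.3% of T/NK cells, against 12.95% to 31.2% in the other groups, and Jak2 in 25.8% of T/NK cells, against 9.53% in the macrophage class.

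Stat2 and Irf9, the parts of ISGF3 among the members, were low and spanned less than the receptors. Stat2 was at 31.9 CPM in the macrophage class, 28.8 in the fibroblast class, 27.7 in the tumour class, 22.5 in unclassed cells, 19.0 in the T/NK class (16 UMIs) and 17.9 in the neutrophil class. No neighbours in that order differed beyond counting error, although the ends of it, the macrophage and neutrophil classes, did. Irf9 was at 42.8 CPM (38.2 to 47.7) in the neutrophil class, 32.2 in the macrophage class, 27.2 in unclassed cells, 24.98 in the T/NK class (21 UMIs), 22.8 in the tumour class and 16.5 in the fibroblast class. From unclassed cells down, no neighbours in that order differed beyond counting error. The neutrophil class thus stood below the macrophage class for Stat2 and above it for Irf9 in CPM. In thinned cells Irf9 was found in 4.05% of the neutrophil class (3.37% to 4.82%) and 3.45% of the macrophage class (2.94% to 4.02%), which overlap. The thinned shares of Stat2, 1.67% (1.24% to 2.20%) and 3.21% (2.71% to 3.76%) in the same order, do not.

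Socs1, which binds JAK kinases and blocks them, was at 101 CPM (80.8 to 125) in the T/NK class, 37.3 in the fibroblast class, 21.6 in the tumour class, 20.4 in unclassed cells, 15.7 in the neutrophil class and 12.4 in the macrophage class. The range was 8.13-fold, second to that of Ifngr1, and only the tumour class and unclassed cells, as neighbours, did not differ beyond counting error. Its UMIs were found in 10.9% of thinned T/NK cells, against 1.05% to 3.13% in the other groups.

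**Figure D1:**
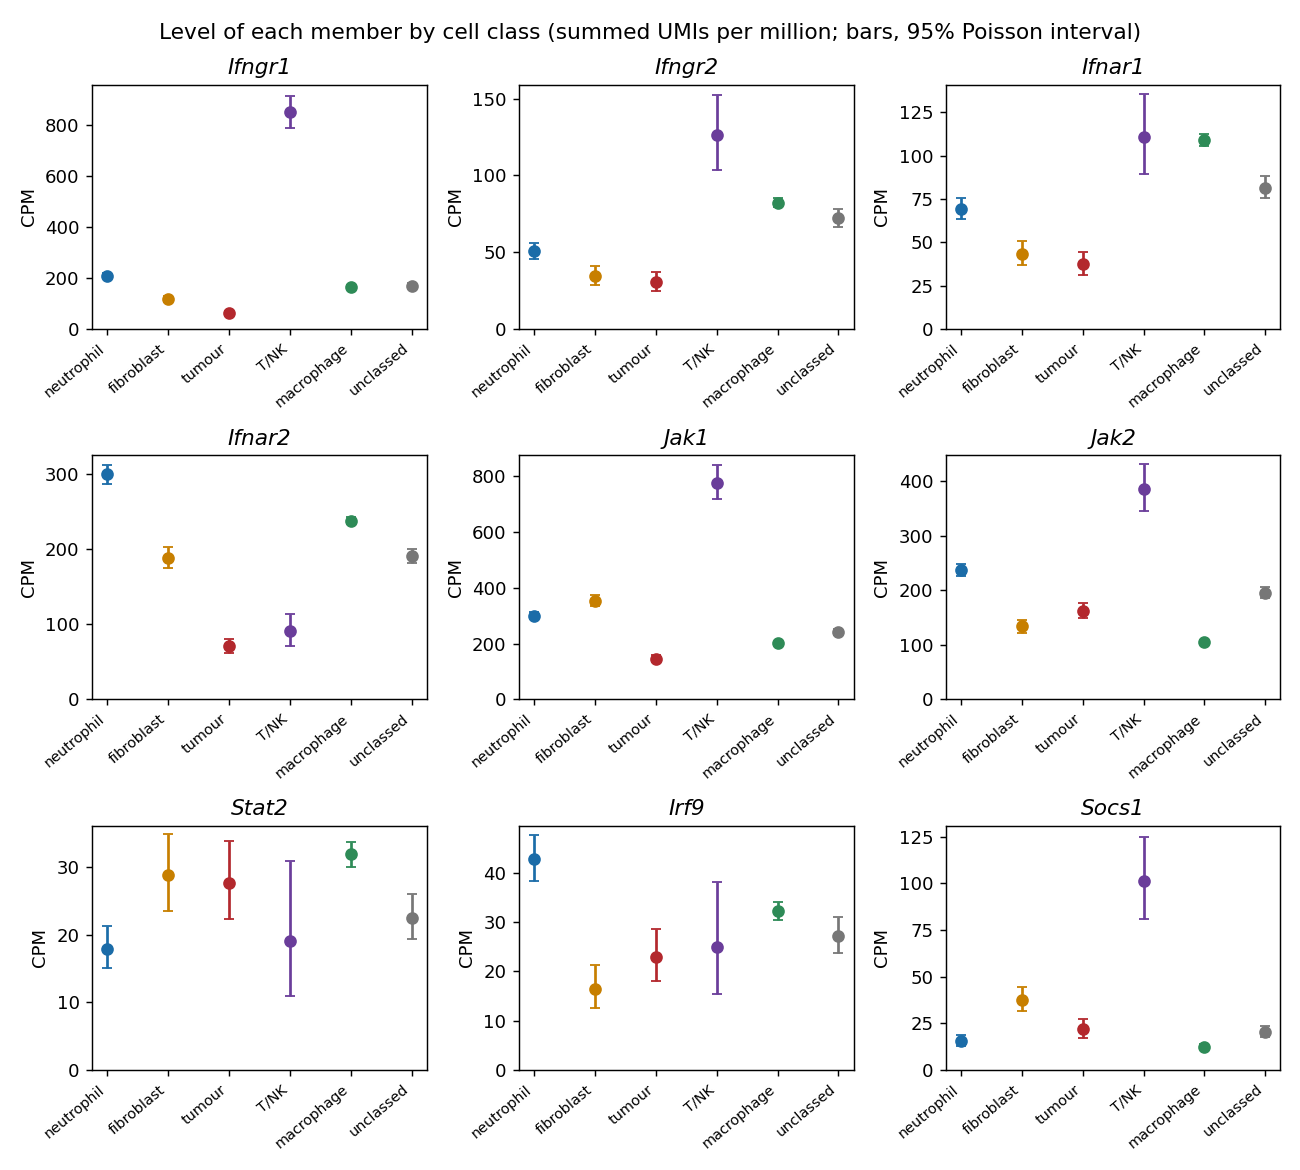
Level of each of the 9 genes in the 5 classes and the unclassed cells of the treated tumours, in CPM of summed UMIs, with each vertical axis starting at 0. Points are 1 sum per group and bars are exact 95% Poisson intervals. The T/NK point stands apart for Ifngr1 (848 CPM), Jak1 (778 CPM) and Socs1 (101 CPM), and the neutrophil point is the highest for Ifnar2 (299 CPM) and Irf9 (42.8 CPM).

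**Figure D2:**
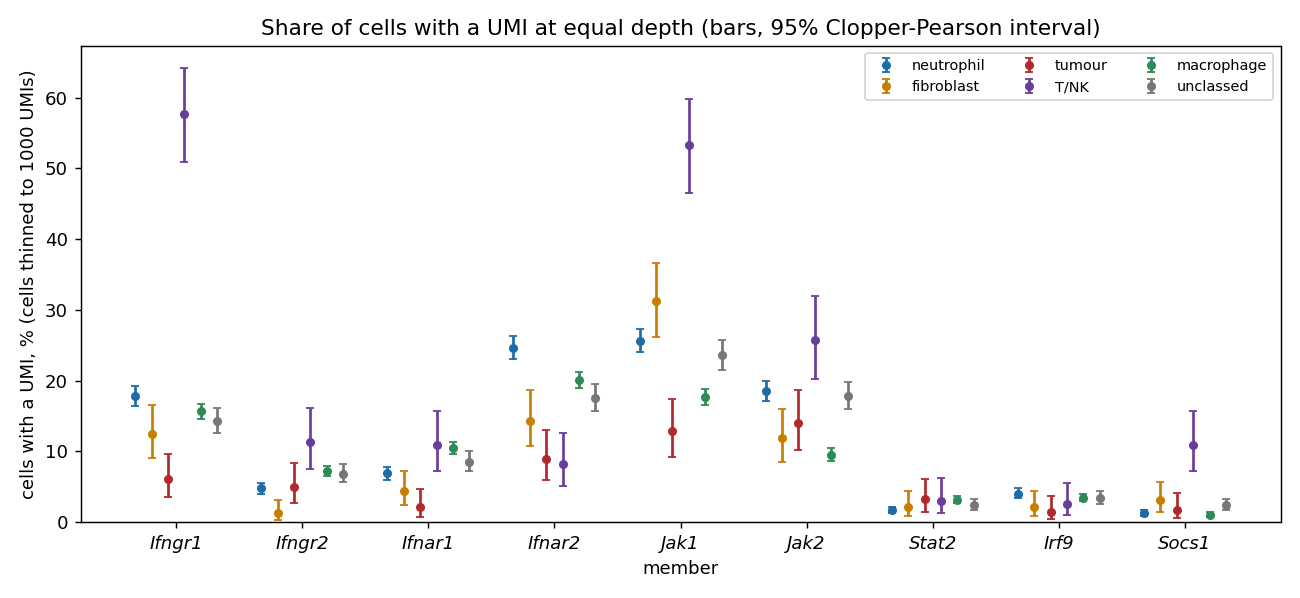
Percent of cells with at least 1 UMI of each gene after every cell was thinned to 1000 UMIs, by group, with exact 95% Clopper-Pearson intervals. Cells under 1000 UMIs are left out. The T/NK class reached 57.6% for Ifngr1 and 53.3% for Jak1, while Stat2 stayed between 1.67% and 3.24% in all 6 groups.

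Each class was then set against all other kept cells, and a gene was counted as higher or lower where the ratio of its CPM was at least 2-fold. The counts are read beside the same count over all 14287 genes with at least 50 UMIs. In the T/NK class 4 of 9 members were higher, Ifngr1, Jak1, Jak2 and Socs1, while 19.0% of all genes were. Ifngr1 was 5.21 times its level in other cells (848 against 163 CPM, 4.82 to 5.62), Socs1 6.33 times (101 against 16.0 CPM, 5.01 to 7.91), Jak1 3.45 times (3.19 to 3.74) and Jak2 2.77 times (2.47 to 3.09). Ifnar2 was lower, at 90.4 CPM against 227 CPM in other cells, a ratio of 0.399 (0.314 to 0.499), as were 26.1% of all genes. The median log2 ratio was 0.84 over members and -0.00 over all genes. These 4 higher genes stayed past 2-fold under every alternative choice of cells or class thresholds tried.

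In the tumour class all 4 receptor chains were lower and no member was higher, while 24.0% of all genes were lower and 25.3% higher. Ifnar2 was at 0.301 times its level in other cells (0.263 to 0.342), Ifngr1 at 0.347 times (0.301 to 0.398), Ifnar1 at 0.390 times and Ifngr2 at 0.410 times. The median log2 ratio was -0.71 over members and 0.21 over all genes. Jak2 was at 1.14 times, Stat2 at 0.977 and Socs1 at 1.28, but with every other group weighted equally the log2 ratios of Jak2 and Socs1 were -0.39 and -0.79. The tumour class also held 19 cells that met a further rule, and the median share of macrophage rule genes in it was 0.0219%. When cells were thinned to 1000 UMIs, the log2 ratio of Ifngr2 was -0.35, against -1.28 unthinned, so that call ended while the other 3 held. Irf9 then passed 2-fold lower, at -1.20 against -0.47 unthinned, but only 4 of 278 thinned tumour class cells held an Irf9 UMI (1.44%, 0.393% to 3.64%).

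In the fibroblast class 1 member was higher, Socs1 at 2.35 times (37.3 against 15.9 CPM), and 2 were lower, Ifngr2 at 0.463 times and Ifnar1 at 0.454 times, while 18.0% of all genes were higher and 23.2% lower. These shares are near those of the members, and each of the 3 calls ended under at least 1 other choice of cells or weights: Socs1 had a log2 ratio of 0.92 with all barcodes and 0.12 with every other group weighted equally, against 1.24. In the neutrophil class no member passed 2-fold, while 9.33% of all genes were higher and 59.6% lower. Of the 9 members there, 5 were above a ratio of 1, against 21.0% of all genes, and the medians of the log2 ratio were 0.32 for members and -1.43 for all genes. Of those 5, Ifngr1 and Jak1 fell below a ratio of 1 with every other group weighted equally. Jak2 was nearest the threshold, at 1.83 times (237 against 130 CPM), with Irf9 at 1.44 and Ifnar2 at 1.40. In the macrophage class no member passed either, while 6.26% of all genes were higher and 22.5% lower, and Socs1 at 0.506 times and Jak2 at 0.526 times were just inside the threshold. Macrophage cells supply 61.1% of the UMIs, so the other classes are set against a mostly macrophage profile.

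**Figure D3:**
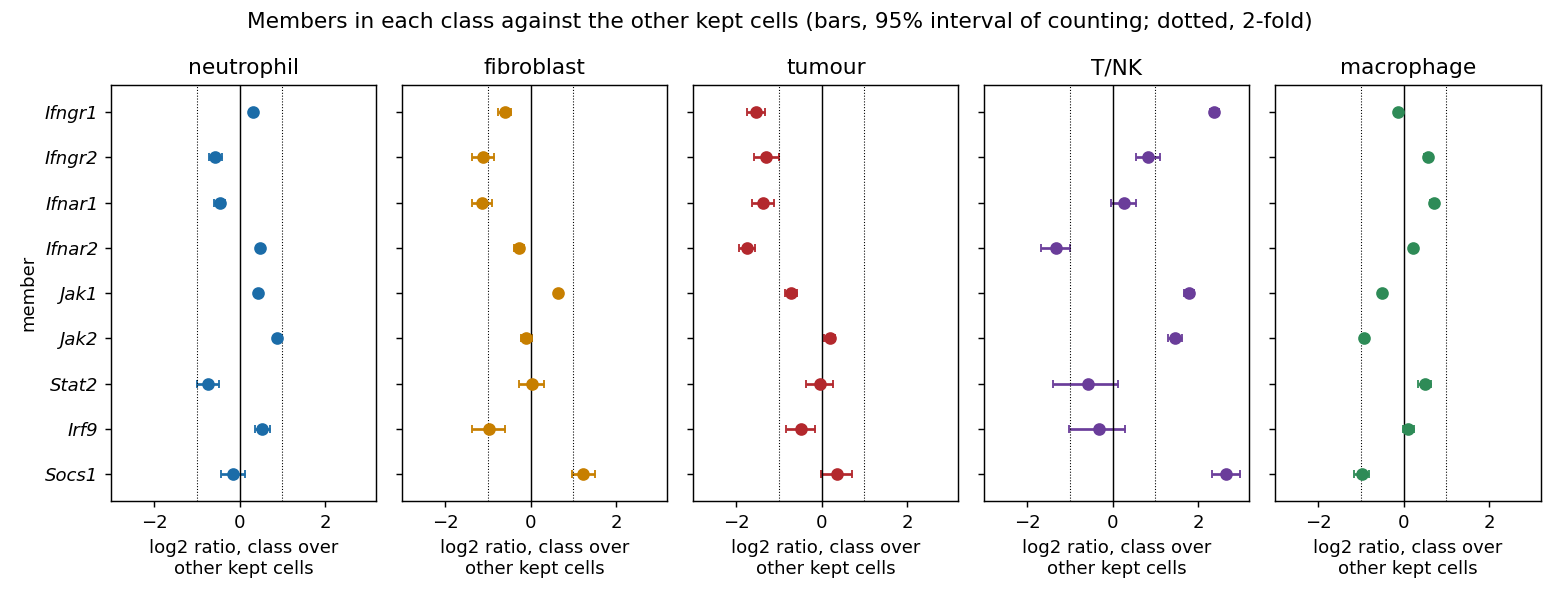
Log2 ratio of CPM for each of the 9 genes in each class over the other kept cells (horizontal axis), with exact 95% intervals of the counting ratio. Dotted lines mark 2-fold. In the T/NK class Ifngr1, Jak1, Jak2 and Socs1 lie right of the upper line and Ifnar2 left of the lower one, and in the tumour class the 4 receptor chains lie left of the lower line.

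Within the macrophage and neutrophil classes, cells were placed in 4 ranges of thinned UMIs of 21 genes known as ISGF3 targets: 0, 1 to 2, 3 to 9, and 10 or more. The macrophage ranges held 2359, 1541, 594 and 58 cells of similar depth (medians 6771 to 7463 UMIs). The ranges are chosen by target genes, none of which is a member. Stat2 in the macrophage class was at 21.3, 31.6, 66.1 and 144 CPM over the 4 ranges, and the highest was 6.75 times the lowest (5.11 to 8.78). Irf9 was at 26.4, 33.9, 46.9 and 79.7 CPM, a ratio of 3.02 (2.09 to 4.23). Socs1 was at 8.92, 10.8, 25.7 and 66.5 CPM, a ratio of 7.45 (4.88 to 11.03). Each of these 3 genes was higher in each successive range, though the intervals of Socs1 in the first 2 ranges overlap (7.64 to 10.3 and 9.09 to 12.8). Ifnar2 was also higher in each successive range, at 222, 244, 279 and 334 CPM. So was Jak2, at 97.7, 108, 128 and 157 CPM. For Ifnar2 and Jak2 the intervals of the last 2 ranges overlap.

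In that comparison of macrophage cells 3 of the 9 members were at least 2-fold higher and none lower, while 8.07% of all genes with 50 UMIs were higher and 12.9% lower. No receptor chain passed 2-fold. Ifnar2, with a ratio of 1.51 (1.27 to 1.77), was higher in the highest range beyond counting error and Ifngr1, with 0.626 (0.459 to 0.834), was lower, while the intervals of Ifnar1 (1.13, 0.840 to 1.49) and Ifngr2 (0.893, 0.612 to 1.26) include 1. Jak2 had a ratio of 1.61 (1.25 to 2.04) and Jak1 of 1.09 (0.881 to 1.33). Irf1, a factor induced by interferon gamma, was at 175 CPM in the highest range and 58.3 CPM in the lowest, and Cxcl9, a chemokine gene induced by interferon gamma, was at 286 and 12.7 CPM in the same order. Ciita, another interferon gamma target, had a ratio of 3.31 (1.04 to 8.12) with 5 UMIs in the highest range, and Socs3, another negative regulator, of 1.32 (1.15 to 1.52). All of these were looked at after the class levels had been seen. Usp18 and Irf7 were added too, but they are among the genes that set the ranges.

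Neutrophil cells gave the same order for Stat2, Irf9 and Socs1, with far fewer UMIs. For each of these genes the intervals of the last 2 ranges overlap. The ranges held 1758, 890, 306 and 33 cells, and Stat2 was at 11.5, 16.5, 43.7 and 127 CPM. The last of these values rests on 8 UMIs, and the ratio to the first was 11.01 (4.50 to 23.5). Irf9 was at 26.6, 56.3, 87.5 and 95.01 CPM, with 6 UMIs in the last range and a ratio of 3.57 (1.28 to 8.02). Socs1 was at 9.83, 14.6, 39.4 and 63.3 CPM but had under 50 UMIs in the 2 ranges compared and was not counted. Thus 2 of the 9 members were higher, against 11.6% of all genes, and 1 was lower, Ifngr2, against 20.7%. That lower call rests on 1 UMI in the highest range, with a ratio of 0.329 (0.00828 to 1.85). Irf1 was at 380 CPM in the highest neutrophil range and 101 CPM in the lowest, while Cxcl9 had no UMI in either.

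**Figure D4:**
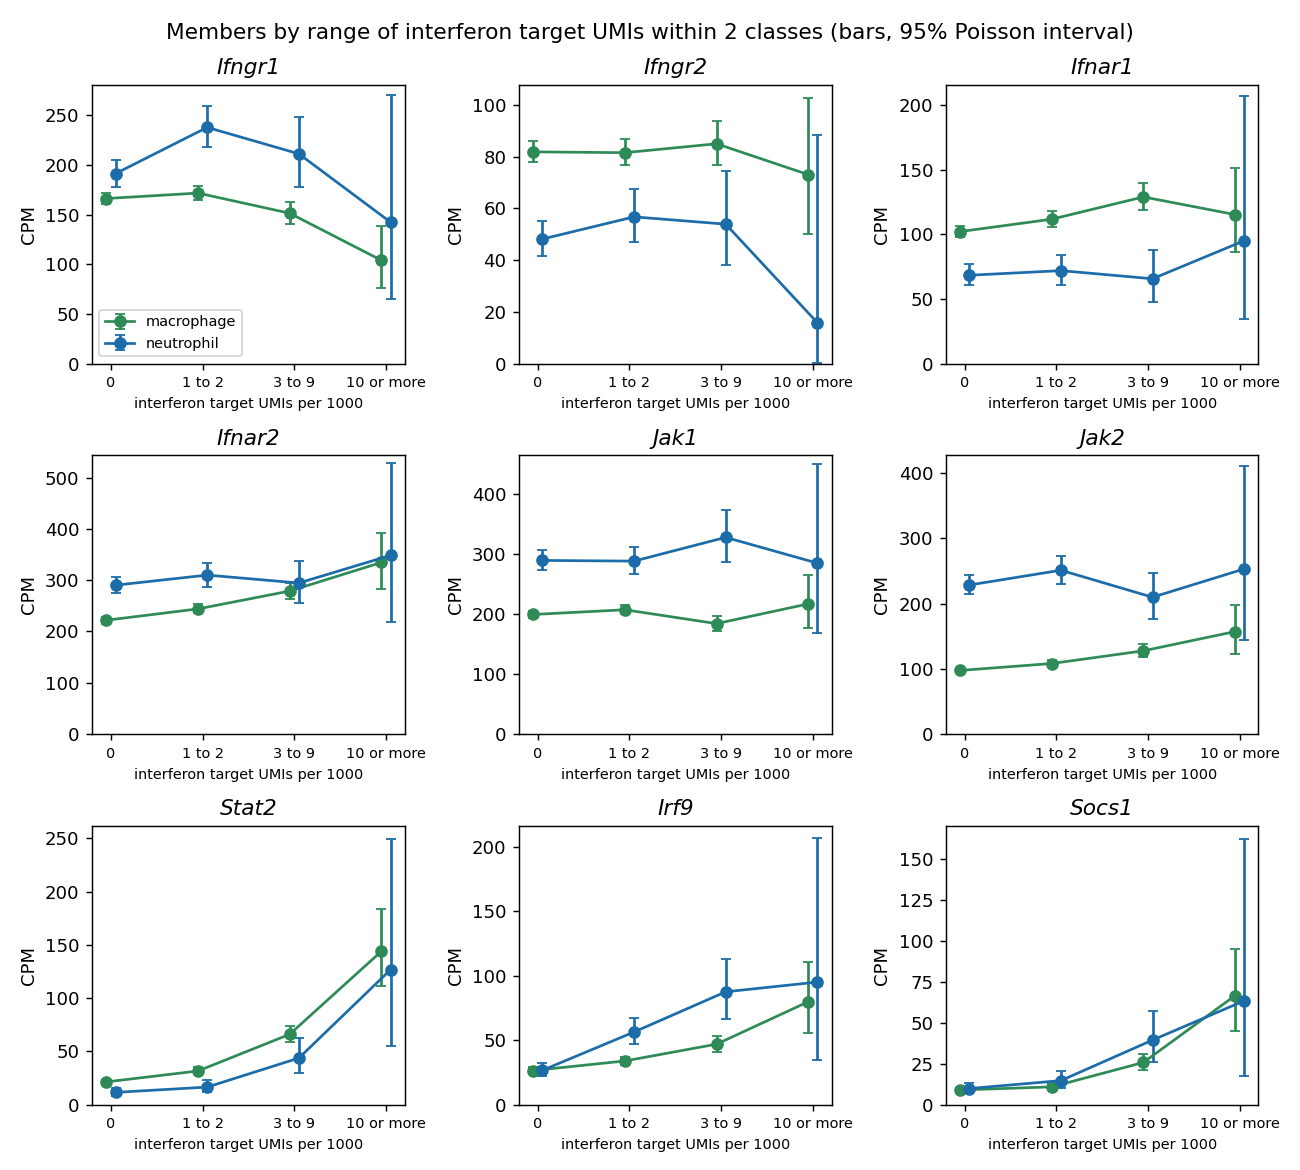
Level of each of the 9 genes in CPM (vertical axis, from 0) by range of UMIs of 21 interferon target genes per 1000 UMIs (horizontal axis), in the macrophage and neutrophil classes, with exact 95% Poisson intervals. The points of Stat2, Irf9 and Socs1 are higher in each successive range in both classes. In the neutrophil class the intervals of the last 2 ranges overlap for each of them, and those of the first 2 overlap for Stat2 and Socs1. In the macrophage class those of the first 2 overlap for Socs1. Stat2 is at 144 CPM in the highest macrophage range and 21.3 CPM in the lowest. In the macrophage class Ifnar2 and Jak2 are also higher in each successive range, while Jak1 stays between 184 and 217 CPM.

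The 3 genes at least 2-fold higher in the highest macrophage range than in the lowest are shown with the 250 bases in front of their RefSeq start. The build is GRCm38.p6, which need not be the build of the counts. Both strands of the promoters of all 9 members were searched for GAAANNGAAA, the core of the interferon-stimulated response element, and for TTCNNNGAA, the gamma-activated site bound by STAT dimers. The first was found in 2 of 9 members, Stat2 and Socs1, and in 2.98% of 32851 RefSeq promoters. It begins 222 bases before the Stat2 start, on the opposite strand, and at 83 and 77 bases before the Socs1 start, in matches that overlap. No match was found in the windows of either RefSeq start of Irf9, of which the first is printed. Capitals mark the matches, written as they read on the strand of the gene.
Stat2, chr10:128270248-128270497, plus strand: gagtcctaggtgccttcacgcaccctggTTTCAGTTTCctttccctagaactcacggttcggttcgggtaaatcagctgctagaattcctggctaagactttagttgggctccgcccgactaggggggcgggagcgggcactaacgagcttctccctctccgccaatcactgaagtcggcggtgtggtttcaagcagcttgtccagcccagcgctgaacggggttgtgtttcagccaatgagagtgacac
Socs1, chr16:10785537-10785786, minus strand: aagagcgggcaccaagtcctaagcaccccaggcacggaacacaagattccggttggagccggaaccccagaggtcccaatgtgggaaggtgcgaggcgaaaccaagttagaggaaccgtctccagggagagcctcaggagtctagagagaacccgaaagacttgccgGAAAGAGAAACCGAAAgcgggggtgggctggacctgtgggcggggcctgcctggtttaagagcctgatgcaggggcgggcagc
Irf9, chr14:55603735-55603984, plus strand: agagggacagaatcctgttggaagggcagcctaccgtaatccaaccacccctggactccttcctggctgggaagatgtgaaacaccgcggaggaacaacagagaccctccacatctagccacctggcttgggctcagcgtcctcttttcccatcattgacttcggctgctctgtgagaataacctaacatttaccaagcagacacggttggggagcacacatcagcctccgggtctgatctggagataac
The gamma-activated site was found in 1 of 9, Ifnar2, at 214 bases before its start, where the pattern matches on both strands, and in 7.02% of promoters. A match describes the letters only, and binding was not measured here.

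Within classes the members did not move as a block. In the neutrophil class, 1039 cells had more thinned UMIs of Ccl3, a chemokine gene of activated cells, than of Retnlg, a gene high in circulating neutrophils, and 1307 had the reverse. Ifngr1 was at 132 CPM in the Ccl3 cells and 244 CPM in the Retnlg cells, a ratio of 0.542 (0.473 to 0.620). Ifngr2 was at 29.9 and 62.1 CPM in the same order, a ratio of 0.481 (0.359 to 0.637). Jak2 went the other way, with 284 CPM in the Ccl3 cells and 197 CPM in the Retnlg cells, a ratio of 1.44 (1.29 to 1.60). Ifnar2 (0.967), Ifnar1 (0.925) and Jak1 (1.05) had ratios whose intervals include 1. Both gamma receptor chains were therefore lower in the Ccl3 cells, and the type I receptor chains did not differ beyond counting error.

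In the macrophage class, 1827 cells had at least 0.5% of their UMIs in the complement genes C1qa, C1qb and C1qc, markers of mature macrophages, and 1404 had under 0.05%. The class rule itself uses C1qa and C1qb, so the C1q-low cells met it mostly through its other genes, Csf1r, Apoe and Lyz2. The C1q-low cells had more of the monocyte genes Ccr2 (186 CPM in the C1q-high cells, 403 in the C1q-low cells) and Ly6c2 (10.2 and 112 CPM). Jak2 was at 83.5 CPM in the C1q-high cells and 162 CPM in the C1q-low cells, a ratio of 0.516 (0.480 to 0.555). Socs1 had a ratio of 0.683 (0.549 to 0.850) and Ifngr1 of 0.795 (0.749 to 0.844). Stat2 at 1.26 and Irf9 at 1.29 were higher in the C1q-high cells, with intervals that do not include 1.

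In the T/NK class 221 of 238 cells held a Cd3 UMI, which the class rule itself uses in part, and 12 held a UMI of Ncr1, a natural killer cell receptor, with none of Cd3. Ifngr1 was at 1048 CPM in the Ncr1 cells and 839 CPM in the Cd3 cells, a ratio of 1.25 (0.928 to 1.65). Jak1 was at 485 and 790.4 CPM, a ratio of 0.614 (0.394 to 0.914), and Jak2 at 155 and 402 CPM, a ratio of 0.386 (0.165 to 0.771), in the same order. No UMI of Ifngr2 or Ifnar2 was found in the 12 cells, which allows up to 71.6 CPM, against 133 and 95.9 CPM in the Cd3 cells. A further split was made after these values were seen, by UMIs of Foxp3, which marks regulatory T cells. The 33 cells with a Foxp3 UMI had Jak2 at 883 CPM (727 to 1062), against 298 CPM in the 205 cells without, a ratio of 2.96 (2.33 to 3.74). They also had more Ifngr1, at 1206 against 784 CPM, with less Jak1 (536 against 821 CPM) and less Ifngr2 (7 UMIs, 55.2 against 139 CPM).

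**Figure D5:**
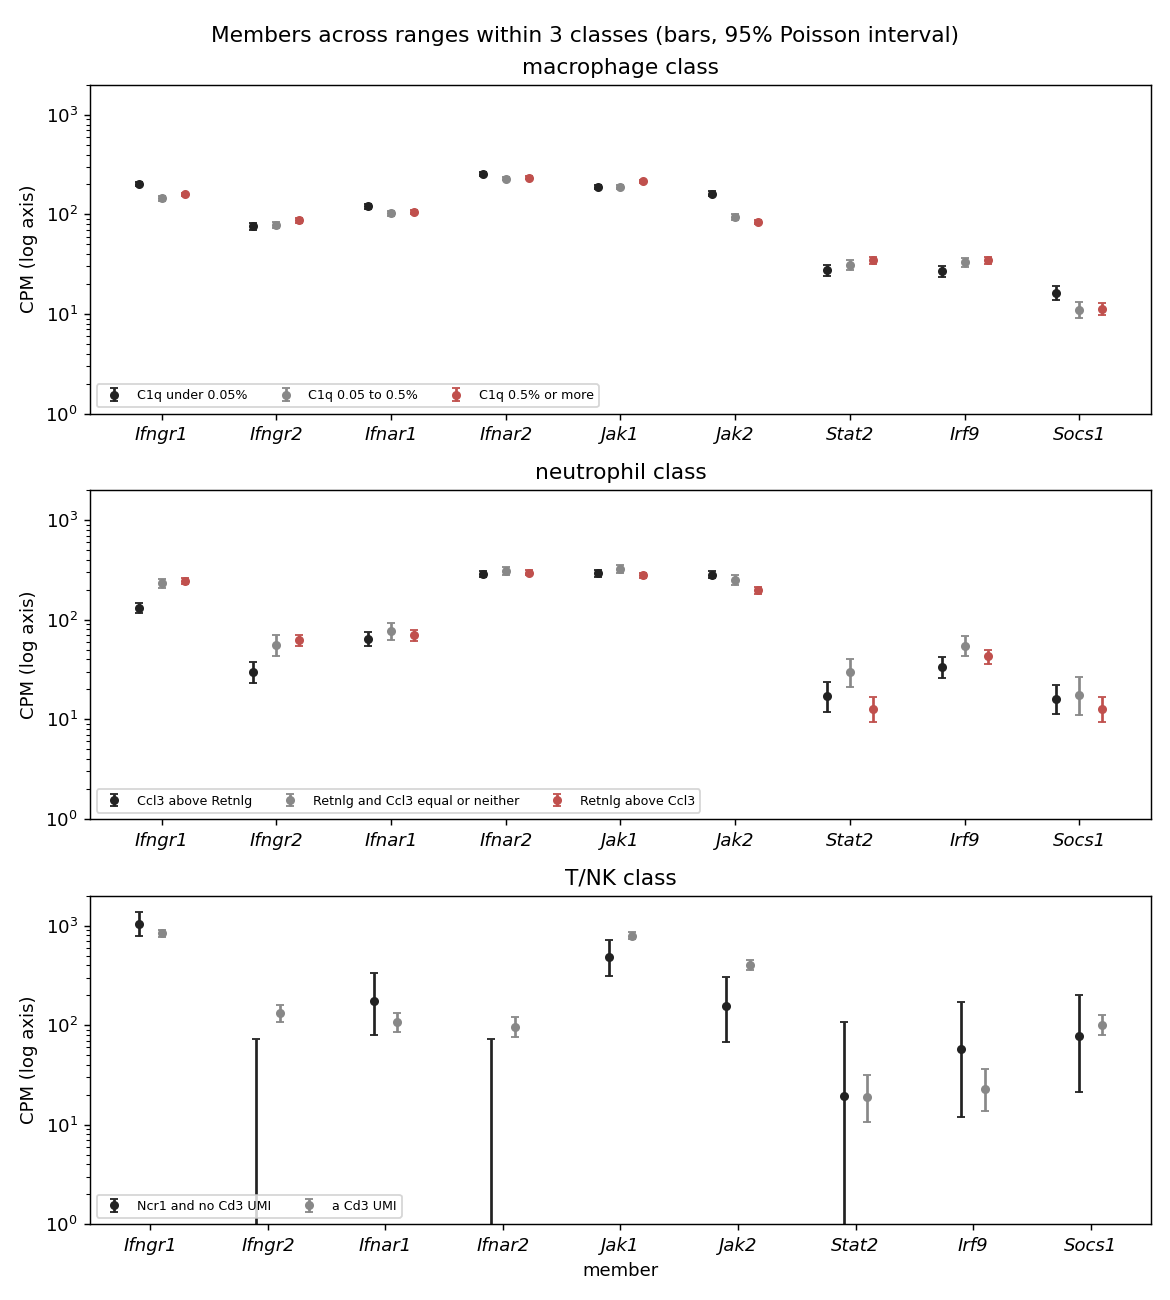
Level of each of the 9 genes in CPM (log axis) in ranges within 3 classes, with exact 95% Poisson intervals. A gene with 0 UMIs in a range has a bar and no point. Jak2 is lower in C1q-high macrophage cells (83.5 against 162 CPM in C1q-low cells), and both interferon gamma receptor chains are lower in neutrophil cells with more Ccl3 than Retnlg (Ifngr1 132 against 244 CPM).

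The rest of the pathway was read in 7 fixed lists, by counts past 2-fold against the other kept cells. These counts are read beside the shares of all genes past 2-fold. In the T/NK class 19.0% of all genes were higher and 26.1% lower, and in the neutrophil class 9.33% and 59.6%. The fibroblast class had 18.0% higher and 23.2% lower, the tumour class 25.3% and 24.0%, and the macrophage class 6.26% and 22.5%. Of 9 further receptor, kinase and STAT genes, 5 were higher in the T/NK class (Jak3, Stat3, Stat4, Stat5a and Stat5b) and 2 lower, with a median log2 ratio of 1.26. Stat4, which carries interleukin 12 signals, was at 500 CPM in the T/NK class, 55.2 times other cells, and Stat5b at 682 CPM, 13.4 times. Il10rb, a shared chain of interleukin 10 and interferon lambda receptors, was lower there at 0.319 times. None of the 9 was higher in the fibroblast, tumour or macrophage class, and 5, 3 and 2 were lower. In the neutrophil class Ifnlr1, the specific chain of the interferon lambda receptor, was at 9.43 CPM (71 UMIs), 15.7 times other cells (10.2 to 24.6), and Tyk2 was the 1 gene lower, at 0.366 times. Ifnlr1 was also among the genes counted as lower in the T/NK class, where it had no UMI and the interval of its ratio (0 to 2.59) includes 1.

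Among 19 negative regulators with 50 UMIs, 5 were higher and 3 lower in the T/NK class, 3 and 5 in the tumour class, 2 and 7 in the fibroblast class, 1 and 7 in the neutrophil class, and 1 and 1 in the macrophage class. Over all genes 59.6% were lower in the neutrophil class, 23.2% in the fibroblast class and 24.0% in the tumour class. Like Socs1, some other SOCS family genes were highest in the T/NK class. Cish, which is induced by STAT5, was at 6.87 times other cells there and Socs5 at 5.21 times (79.7 CPM). Socs4 was also highest there, at 42.8 CPM, but did not pass 2-fold. Unlike these, Socs6 was at 170 CPM in the tumour class, 7.17 times other cells. Socs2 was at 0.105 times in the neutrophil class and 2.12 times in the macrophage class. Of 8 interferon regulatory factors, 2 were higher in the macrophage class, Irf8 at 253 CPM (3.59 times) and Irf5 at 99.8 CPM (2.73 times), and both were lower in the neutrophil, fibroblast and tumour classes. Over all genes 6.26% were higher in the macrophage class.

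Ligands were nearly absent from the counts. None of 11 interferon genes reached 50 UMIs, and the most were 19 UMIs each of Ifng and Ifnb1. Of the Ifng UMIs 11 were in the T/NK class (13.1 CPM), and of the Ifnb1 UMIs 16 were in the macrophage class (0.431 CPM). At this depth a low level of ligand RNA in other cells was not detectable.

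Target genes were read in the same way. Of 20 ISGF3 targets with 50 UMIs, 6 were higher and none lower in the macrophage class, among them Mx1 (4.47 times), Ifi44 (2.88 times) and Ifi27l2a (464 CPM, 2.60 times), and the median log2 ratio was 0.50, against -0.10 over all genes. None was higher in the T/NK class, where 11 were lower and Oasl2 had no UMI, against 32.3 CPM in the macrophage class, and the median was -1.19. Of these 11, Mx2 (0 UMIs, ratio 0 to 1.59) and Ifit2 (5 UMIs, 0.143 to 1.03) had intervals that include 1. In the neutrophil class 4 were higher and 6 lower, where 9.33% of all genes were higher and 59.6% lower. In the fibroblast and tumour classes none was higher and 12 were lower in each, where 23.2% and 24.0% of all genes were lower. Over all genes 6.26% were higher in the macrophage class, and 19.0% were higher and 26.1% lower in the T/NK class. Of 17 interferon gamma targets other than Socs1, 5 were higher and 3 lower in the T/NK class, with Nlrc5, an activator of class I antigen presentation genes, at 85.6 CPM (4.45 times), and a median of 0.41. The macrophage class had 1 higher and none lower (median 0.21), the neutrophil class 2 and 7 (-0.27), the fibroblast class 2 and 7 (-0.40) and the tumour class 1 and 5 (-0.63). The shares of all genes that were lower were 59.6% in the neutrophil class, 23.2% in the fibroblast class and 24.0% in the tumour class. Cxcl9 had no UMI in the T/NK class and was at 182 CPM in the fibroblast class, 6.66 times other cells.

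Of 20 other receptors that signal through JAK1 or JAK2, 7 were higher and 9 lower in the T/NK class, led by Il2rb, a chain of the receptors for interleukins 2 and 15 and also a marker of the class, at 489 CPM. The neutrophil class had 3 higher and 12 of 20 lower, led by Csf3r, a rule gene, where 59.6% of all genes were lower. The fibroblast class had 4 higher and 11 lower, with Osmr, the oncostatin M receptor, at 200.4 CPM (29.5 times), and the tumour class 3 and 13, with Osmr at 59.2 CPM (3.69 times). The macrophage class had none higher and 8 lower. Over all genes 26.1% were lower in the T/NK class, 23.2% in the fibroblast class, 24.0% in the tumour class and 22.5% in the macrophage class.

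Likeness was measured over the 6 groups as the root mean square difference of centred log2 levels, among 11147 genes with at least 200 UMIs. The pair of members closest to each other was Ifngr2 and Ifnar1, at 0.21, and the farthest was Ifnar2 and Socs1, at 1.51. Across all genes the closest to Ifngr1 were Itpkb, Tecpr1 and Crbn, with Itpkb at 0.33, and the closest to Ifngr2 were Med11, Csk and Ncoa3, with Med11 at 0.06. For Ifnar1 they were Sipa1, Csk and Serinc3, and for Ifnar2 Gm57402, 1700019L13Rik and Adprh. For Jak1 they were Entpd5, Clint1 and Irgm2, for Jak2 Zfp36l2, Parp4 and Cenpq, for Stat2 Coro1b, Rsu1 and Cox19, for Irf9 Dnajc5, Tor1aip1 and Rap2c, and for Socs1 Zyg11b, Zfp592 and Stat5a. With 6 groups from 1 library, these names describe these sums only.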

How the data were processed

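The authors deposited UMI counts for each gene in each barcode, unnormalized, from Chromium Single Cell 3′ v3 libraries. The file headers name Cell Ranger 8.0.1, and the submitters' processing notes also name STAR. The genome build was not given in the sources used here. Barcodes tied the matrix to the treated library: it holds all 10835 that the authors' cell list gives for that library and 37 of the 11643 for the control, 33 of which are in both lists. The 1474 barcodes that the authors left out were used only as an alternative and in the closing section.

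Members, gene lists and comparisons were chosen with earlier results of these data known. All 9 members were named, with up to 4 genes of each list with the largest ratios among those with 50 UMIs, of which a part is printed, and for each member the 3 genes most like it. The Foxp3 split, the marker ranges of unclassed cells, and Irf1, Cxcl9, Ciita, Socs3, Usp18, Irf7, Ccr2 and Ly6c2 within ranges were added after values were seen. A listed gene was left out of the lists and is not reported here.

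UMIs were summed per class in Python 3.11.15 (pandas 2.3.3, numpy 2.4.6, scipy 1.17.1). Shares have Clopper-Pearson and ratios exact conditional Poisson intervals, at 95%. Log2 ratios had 0.5 counts added to each sum. For shares at equal depth each cell was thinned to 1000 UMIs (seed 7), which leaves out 915 cells. Doublets were not called, and leaving out the 345 cells of several class rules was tried in place of it. Free RNA was not subtracted. The ratio and log2 steps were tested on Poisson counts drawn at the level of class sums, without spread between cells.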

Additional observations from a re-analysis of the deposited data

Results flagged for a closer look

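Signal was found in barcodes that the comparisons above do not use. The authors left out 1474 barcodes of the treated library, of which 1097 held at least 20000 UMIs, and all 9 members were above the limit that a count of 0 allows in them. Ifngr1 was at 79.9 CPM in left-out barcodes and 172 CPM in kept cells, Ifngr2 at 46.6 and 71.7 CPM, Ifnar1 at 47.3 and 92.4 CPM, Ifnar2 at 129.8 and 225 CPM, Jak1 at 179.6 and 233 CPM, Jak2 at 100.6 and 143 CPM, Stat2 at 20.7 and 28.3 CPM, and Irf9 at 16.1 and 31.3 CPM, each with left-out barcodes first. Socs1 alone was higher in left-out barcodes, at 25.2 CPM against 17.1 CPM in kept cells, a ratio of 1.47 (1.35 to 1.61).

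The left-out barcodes have another make-up: 436 met the tumour rule, 459 the macrophage rule and 242 the fibroblast rule, and 4 the T/NK rule. Within the tumour rule, Ifnar2 was at 71.6 CPM in left-out barcodes and 70.3 CPM in kept cells, and Ifngr1 at 55.1 and 61.9 CPM. There Jak2 was at 98.6 CPM in left-out barcodes and 162 CPM in kept cells, a ratio of 0.610 (0.553 to 0.674), and Socs1 at 31.9 and 21.6 CPM, a ratio of 1.47 (1.15 to 1.91). Barcodes of this depth can hold more than 1 cell, and its part in these values was not tested.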

How the results depend on the processing

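No paired analysis was possible because each group is 1 library and only the treated one has counts here, so no replicate could be left out either. Counts of members past 2-fold in the class comparisons moved by over 1.5 times as follows. With all barcodes in place of kept cells, the fibroblast class had 0 higher and the macrophage class 1 higher and 1 lower, where kept cells gave 1, 0 and 0. With the mean over cells of each cell's share, the fibroblast class had 0 higher, the T/NK class 2 lower (1 before) and the macrophage class 1 lower. With cells thinned to 1000 UMIs the fibroblast class had 1 lower (2 before) and the macrophage class 2 lower. Thresholds of the class rules doubled, thresholds halved, and cells of 1 rule only each gave the macrophage class 1 lower. With every other group weighted equally the neutrophil class had 1 lower, the fibroblast class 0 higher and the macrophage class 2 lower.

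A 1.5-fold threshold gave 1 higher and 1 lower in the neutrophil class, 2 and 4 in the fibroblast class, and 1 and 2 in the macrophage class. A 3-fold one left 0 and 0 in the fibroblast class, 1 lower in the tumour class (4 before) and 0 lower in the T/NK class. With interferon ranges set on cells thinned to 2000 UMIs, the neutrophil comparison had 1 higher in place of 2. No called member changed sign under any setting tried, and of 45 ratios of a member in a class, 39 to 45 kept their sign. The macrophage ratios of Socs1 and Jak2 lie close to 2-fold. Few UMIs stand behind Stat2 and Irf9 in the T/NK class (16 and 21) and behind Stat2, Irf9 and Socs1 in the highest neutrophil range (8, 6 and 4), and all intervals leave out the spread between animals, which 1 library cannot show.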

Other observations

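The unclassed cells hold further cell types by their markers, with thresholds set after values were seen. Of them, 96 cells had at least 0.5% of their UMIs in osteoclast markers (Ctsk, Acp5, Atp6v0d2, Ocstamp and Dcstamp), and were deep, with a median of 13134.5 UMIs. Jak2 was nearly missing from them, at 10.6 CPM (13 UMIs), against 215 CPM in the 1475 unclassed cells without any of the marker sets, a ratio of 0.0493 (0.0262 to 0.0846). Ifngr1 was at 27.7 CPM in the osteoclast marker cells and 187 CPM in those other cells, a ratio of 0.148 (0.102 to 0.208), while Ifngr2 went the other way, at 101 and 66.4 CPM. Ifnar1 (ratio 0.357), Jak1 (0.463), Stat2 (0.495) and Ifnar2 (0.571) were also lower in the osteoclast marker cells beyond counting error, and the intervals of Irf9 and Socs1 include 1. The levels of Jak2 and Ifngr1 in the osteoclast marker cells are the lowest of these 2 genes in any class or marker set examined.

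A further 91 cells had at least 0.1% of their UMIs in B cell markers. Jak1 was at 515 CPM and Jak2 at 433 CPM in them, against 248 and 215 CPM in unclassed cells without a marker set. Ifnar2 was at 52.0 CPM (12 UMIs), against 211 CPM, a ratio of 0.246 (0.127 to 0.432), and T/NK cells were low for the same chain. In 82 cells with endothelial markers, Ifngr1 was at 281 CPM and Jak1 at 377 CPM, 1.498 and 1.52 times the cells without a marker set. The 16 cells with dendritic markers had Jak2 at 858 CPM (94 UMIs) and Stat2 at 100.4 CPM (11 UMIs), from too few cells to describe further. Only 3 of the 6 dendritic markers were highest in unclassed cells, and Ccr7 was at 165 CPM in the T/NK class against 12.8 CPM there.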
